A study of Mus musculus and Rattus norvegicus with 32 samples.

Results

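The 10 cardiac developmental transcription factors were followed through the 4 comparisons of a study of METTL5, the methyltransferase that places m6A on 18S rRNA. The 10 genes were taken by symbol: Gata4, Gata6, Tbx5, Tbx20, Nkx2-5, Irx4, Prox1, Hopx, Hand1 and Hand2. Each had a single row among the 55487 genes of the 3 mouse tables and among the 32883 genes of the rat table. RNA sequencing was done on hearts of C57BL/6 mice and on neonatal rat ventricular cardiomyocytes (NRVMs), with 4 libraries per group and 32 libraries in all. The sample titles say heart and name no chamber.

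Hearts of 1-month-old mice were labelled Mettl5-KO, the knockout in the whole animal, or Ctrl. Hearts of 3-month-old mice were labelled Mettl5-cKO or Ctrl, where Myh6-Cre removes floxed exons of Mettl5 in cardiomyocytes and leaves the gene in the other cells of the heart. A second set of Mettl5-cKO and Ctrl hearts, from mice also labelled as 3 months old, was collected 4 weeks after transverse aortic constriction (TAC), which loads the left ventricle with pressure, and no unoperated hearts stand in that table. NRVMs came from Sprague Dawley rats at postnatal day 2, were infected with adenovirus for METTL5 (AdMettl5) or GFP (AdGFP), and both groups received 20 μM phenylephrine (PE), a hypertrophic agonist, for 24 h. Whether the libraries of a group came from separate animals or cultures is not said for each library, so the p-values measure the spread between these libraries.

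These factors form the core of the regulatory network that builds the heart. GATA, T-box and NK2 homeobox proteins bind DNA side by side at the enhancers of contractile and natriuretic peptide genes, and the bHLH proteins Hand1 and Hand2 shape the ventricles. In the adult heart most of them stay on in cardiomyocytes, and several are also known from other cells of the heart, fibroblasts among them. Gata6 is the close relative of Gata4, Tbx5 acts in atria and the conduction system, and Nkx2-5 is the first of the homeobox factors to mark the cardiac lineage. Irx4 is restricted to ventricular cardiomyocytes, Prox1 is a homeobox factor of cardiac muscle and lymphatic endothelium, and Hopx is a homeodomain protein that binds no DNA itself and limits serum response factor.

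Promoters were read for 6 of the 10 members from the promoter table of RefSeq for GRCm38.p6. Gata4, Tbx5 and Hand1 had no entry there, and Gata6 was left out of the reading. Sequence is shown for those of the 6 that passed the test in at least 1 comparison. Each sequence is the 250 bases before the transcription start in the mouse, 5′ to 3′ on the strand of the gene, and the rat sequence was not analysed. Capitals mark matches, on either strand, to 4 motifs: AGATAA for GATA factors, AGGTGT for T-box factors, TNAAGTG for Nkx2-5 and the E-box CANNTG for bHLH proteins such as Hand2. For Tbx20 the window was chr9:24774304-24774553 (minus strand), for Irx4 chr13:73260247-73260496 (plus strand), for Nkx2-5 chr17:26841566-26841815 (minus strand) and for Hand2 chr8:57320733-57320982 (plus strand).
Tbx20: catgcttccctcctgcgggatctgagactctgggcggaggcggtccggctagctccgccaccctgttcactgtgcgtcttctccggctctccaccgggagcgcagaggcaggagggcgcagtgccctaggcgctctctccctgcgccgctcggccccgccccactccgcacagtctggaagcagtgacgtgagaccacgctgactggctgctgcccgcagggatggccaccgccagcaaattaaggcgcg
Irx4: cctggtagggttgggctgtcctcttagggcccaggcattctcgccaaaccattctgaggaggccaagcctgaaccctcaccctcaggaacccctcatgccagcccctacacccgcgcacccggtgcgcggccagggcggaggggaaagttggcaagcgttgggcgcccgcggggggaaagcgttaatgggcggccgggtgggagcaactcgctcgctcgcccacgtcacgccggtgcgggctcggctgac
Nkx2-5: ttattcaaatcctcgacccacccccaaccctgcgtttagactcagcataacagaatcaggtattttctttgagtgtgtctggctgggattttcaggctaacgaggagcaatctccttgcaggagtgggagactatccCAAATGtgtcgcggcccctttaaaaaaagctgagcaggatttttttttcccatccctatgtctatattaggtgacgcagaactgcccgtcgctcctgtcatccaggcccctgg
Hand2: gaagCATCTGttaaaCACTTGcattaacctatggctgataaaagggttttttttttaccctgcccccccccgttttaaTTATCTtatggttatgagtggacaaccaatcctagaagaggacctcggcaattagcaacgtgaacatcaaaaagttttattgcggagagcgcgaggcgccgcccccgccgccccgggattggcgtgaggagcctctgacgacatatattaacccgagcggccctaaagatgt

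The windows of Tbx20 and Irx4 held none of the 4 motifs. Both had a GC content of 68.8% and 22 CpG, against medians of 52.4% and 6 over the 32851 promoters that were read. Those of Hand2 and Nkx2-5 had a GC content of 49.2%, with 15 and 8 CpG. The window of Hand2 held 1 GATA motif and 2 E-boxes, and that of Nkx2-5 held 1 E-box. Across the 32851 promoters, at the same length, 9.99% held the GATA motif, 11.8% the T-box motif, 10.1% the Nkx2-5 motif and 66.2% an E-box. A match is a run of letters and was not tested as a binding site.

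Levels of the factors in the mouse hearts were first set in order, as CPM (read counts scaled to the size of the library) per kb of exon, in control hearts. Hopx stood highest, at 54.0 ± 13.4 CPM per kb (SD, n = 4) at 1 month, 81.4 ± 10.6 at 3 months and 80.0 ± 6.45 after TAC. Nkx2-5 followed, at 19.6 ± 2.83, 29.96 ± 2.86 and 30.4 ± 1.06 CPM per kb, and Gata4 was lower, at 11.9 ± 1.25, 16.7 ± 2.11 and 14.4 ± 0.397 CPM per kb. Hand2 lay between them, and at 3 months its 29.9 ± 23.5 CPM per kb could not be placed apart from either. Irx4 (8.91 ± 1.26 at 3 months) and Gata6 (6.16 ± 1.42) came next. Prox1, Tbx20 and Tbx5 shared the low end by this measure, and at 3 months their 4.16 ± 0.168, 4.04 ± 0.717 and 3.92 ± 0.567 CPM per kb did not differ beyond the spread. The length is that of all annotated exons of a gene merged, which no single transcript need have. It was 11997 bases for Tbx20 and 8390 for Prox1, beside 1719 for Nkx2-5 and 1516 for Hopx. Before the division Tbx20 averaged 48.5 ± 8.60 CPM at 3 months and Nkx2-5 51.5 ± 4.92 CPM, so the order depends on these lengths. The tables were scaled separately, so the levels at the 3 stages are side by side and were not tested against each other.

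**Figure D1:**
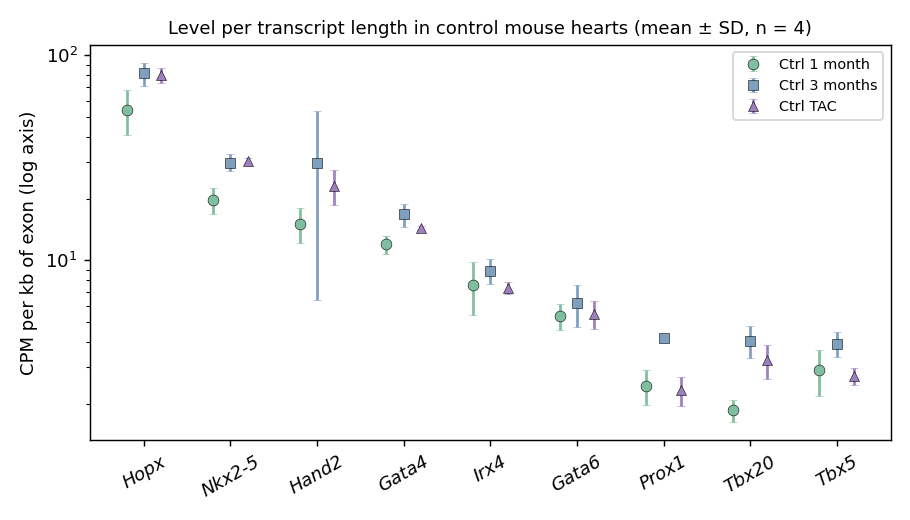
Mean level of 9 factors in the control mouse hearts, as CPM per kb of exon on a log axis, with bars for the SD over 4 libraries and one symbol for each set of control hearts. Hopx is highest in each set, and Prox1, Tbx20 and Tbx5 lie together at the low end. Hand1 is left out because it had no counts in nearly all mouse libraries.

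Hand1, which is active in the embryonic left ventricle, was not detectable in the mouse hearts. It had 0 counts in 23 of 24 mouse libraries, where a count of 0 (a limit of 3 counts) allows at most 0.118 to 0.181 CPM depending on the library, and this covers counting error only. The remaining library, control library 2 at 1 month, had 4 counts (0.190 CPM). The other 9 members had at least 180 counts in each mouse library and were tested in all 3 mouse comparisons, and in NRVMs all 10 were tested.

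Total counts per library ranged from 19899033 to 21804907 in the mouse tables and from 14324700 to 18085339 in NRVMs, where all AdMettl5 libraries were smaller than all AdGFP libraries. A gene was called changed when its p was under 0.05 in the quasi-likelihood test of edgeR after Benjamini-Hochberg adjustment over all tested genes. The summed level of 12 cardiomyocyte markers lay between 20786 and 39564 CPM in the mouse hearts, and 11 of these markers were in the rat table, where they summed to 8916 to 22841 CPM. Mettl5 itself differed by 0.22 on the log2 scale at 1 month (adjusted p = 0.973), -0.18 at 3 months (0.884), -0.04 after TAC (0.874) and 0.32 in NRVMs (0.00295). A gene total also counts reads outside the floxed exons, so for Mettl5-cKO it gave no check of the genotype labels. The paper reports that these exons were nearly absent from the reads of Mettl5-cKO hearts. For the whole-animal knockout at 1 month the deleted part is not given in the sources used here, so the total could not be read as a check. The groups are named as labelled. The adenovirus carried the human coding sequence, so the rat row need not count the added RNA and 0.32 is no measure of the overexpression.

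In hearts of 1-month-old mice, the comparison asks whether loss of METTL5 in the whole animal alters the network before any stress. None of the 9 tested members changed, where 0.00612% of all tested genes did (1 of 16329). One member had a p under 0.05 before adjustment, against 4.57% of all genes. The log2 fold changes of the members ran from -0.02 to 0.43 with standard errors of 0.111 to 0.22, and their median was 0.15 beside -0.0067 over all genes.

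Tbx20, a T-box factor needed in adult cardiomyocytes, differed most. It measured 20.1, 26.3, 21.3 and 21.3 CPM in control libraries 1 to 4, and 28.1, 28.0, 31.3 and 32.5 CPM in Mettl5-KO. All Mettl5-KO libraries lay above all controls, as was so for 1.52% of all genes in this direction. Its log2 fold change was 0.43 (SE 0.111, adjusted p = 0.973 in edgeR) and the exact permutation p, two-sided, was 0.0286, which is the smallest that the 70 ways to label 4 against 4 libraries can give.

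The groups overlapped for the other 8 members. Gata4, the zinc finger factor that drives hypertrophic gene programs, averaged 46.6 ± 4.88 CPM (SD, n = 4) in controls and 52.8 ± 5.08 in Mettl5-KO. Hand2 averaged 35.4 ± 6.82 and 43.0 ± 7.03 CPM, and Gata6 34.9 ± 5.08 and 38.9 ± 3.85 CPM. Hopx averaged 81.9 ± 20.3 and 91.2 ± 20.9 CPM, Prox1 20.5 ± 3.99 and 22.8 ± 2.62, Irx4 19.8 ± 5.65 and 19.5 ± 2.88, and Tbx5 13.6 ± 3.39 and 13.95 ± 1.10 CPM. Nkx2-5, the NK2 homeobox factor of the cardiac lineage, averaged 33.8 ± 4.87 and 35.3 ± 3.07 CPM, a log2 fold change of 0.06 with a 95% interval from -0.18 to 0.30.

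At 1 month, control library 1 stood apart for several members. It was lowest for Hopx, at 52.8 CPM beside 86.8 to 99.9 in the other controls, and for Hand2, at 25.4 beside 37.0 to 39.9. It was highest for Irx4 (27.6 beside 14.7 to 20.2 CPM), Prox1 (26.4 beside 17.9 to 19.9), Gata6 (42.3 beside 31.0 to 34.3) and Tbx5 (18.4 beside 10.7 to 13.5). The same library had the lowest cardiomyocyte marker sum of its group (20786 CPM beside 22751 to 27237) and the lowest fibroblast marker sum (525 CPM beside 697 to 1032). Its endothelial (1081 beside 1179 to 1329 CPM) and atrial sums (35.0 beside 42.6 to 50.5) were also lowest. Its macrophage (243 beside 137 to 194 CPM) and smooth muscle sums (2068.5 beside 1480 to 1660) were highest. The part of cell content in these values was not tested. Without control library 1 the log2 fold change of Irx4 turned from -0.02 to 0.18 and that of Hopx from 0.16 to -0.0025, and no member passed.

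In hearts of 3-month-old mice, the deletion was limited to cardiomyocytes. None of the 9 tested members changed, where 0.0732% of all tested genes did (12 of 16391), and 1 member had a p under 0.05 before adjustment, against 7.05% of all genes. The median log2 fold change of the members was 0.08 beside 0.00071 over all genes.

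Hopx differed most. It measured 146, 123, 110.0 and 114 CPM in control libraries 1 to 4, and 170.2, 146, 152 and 148 CPM in Mettl5-cKO. The groups did not overlap, the lowest Mettl5-cKO library lying just above the highest control, and 2.19% of all genes were separated in this direction. The log2 fold change was 0.32 (SE 0.106, adjusted p = 0.523 in edgeR, exact permutation p = 0.0286).

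Hand2 could not be compared well at this age. It measured 153, 48.3, 37.8 and 42.1 CPM in control libraries 1 to 4, and 87.6, 53.3, 95.3 and 60.3 CPM in Mettl5-cKO. Control library 1 lay far above every other library, while the other controls all lay below all Mettl5-cKO libraries. With all libraries the log2 fold change was 0.08 (SE 0.432, adjusted p = 0.999), and without control library 1 it was 0.80 (adjusted p = 0.245). That library had the highest atrial marker sum of its group (79.1 CPM beside 51.7 to 54.8). Its fibroblast sum was also highest (628 CPM beside 477 to 532) and its endothelial sum lowest (778 CPM beside 903 to 1145). Its cardiomyocyte sum of 38791 CPM lay within the 37031 to 39564 CPM of the other controls. The part of cell content was not tested. Hand2 shares 461 exonic bases, 19.6% of its exonic length, with the antisense gene Hand2os1, and without stated strand use the reads of this stretch cannot be told apart. Hand2os1 measured 74.7 CPM in control library 1 and 55.7 to 59.8 CPM in the other controls, and its log2 fold change was -0.01 (adjusted p = 1.00).

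The groups overlapped for the remaining factors. Gata4 averaged 65.3 ± 8.25 CPM in controls and 65.6 ± 8.11 in Mettl5-cKO, with a 95% interval of the log2 fold change from -0.23 to 0.25. Nkx2-5 averaged 51.5 ± 4.92 and 53.3 ± 6.73 CPM (interval -0.17 to 0.27), and Tbx20 averaged 48.5 ± 8.60 and 54.0 ± 7.72 CPM (interval -0.14 to 0.45). Gata6 (40.1 ± 9.25 and 48.9 ± 8.04 CPM) and Tbx5 (18.3 ± 2.65 and 22.4 ± 4.79 CPM) had log2 fold changes of 0.29 each, with adjusted p of 0.866 and 0.836 in edgeR. Irx4 averaged 23.2 ± 3.28 and 24.6 ± 6.29 CPM (log2 fold change 0.08, interval -0.26 to 0.43). Prox1 was tight in controls, at 33.6 to 36.5 CPM, and spread from 25.8 to 48.8 CPM in Mettl5-cKO.

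**Figure D2:**
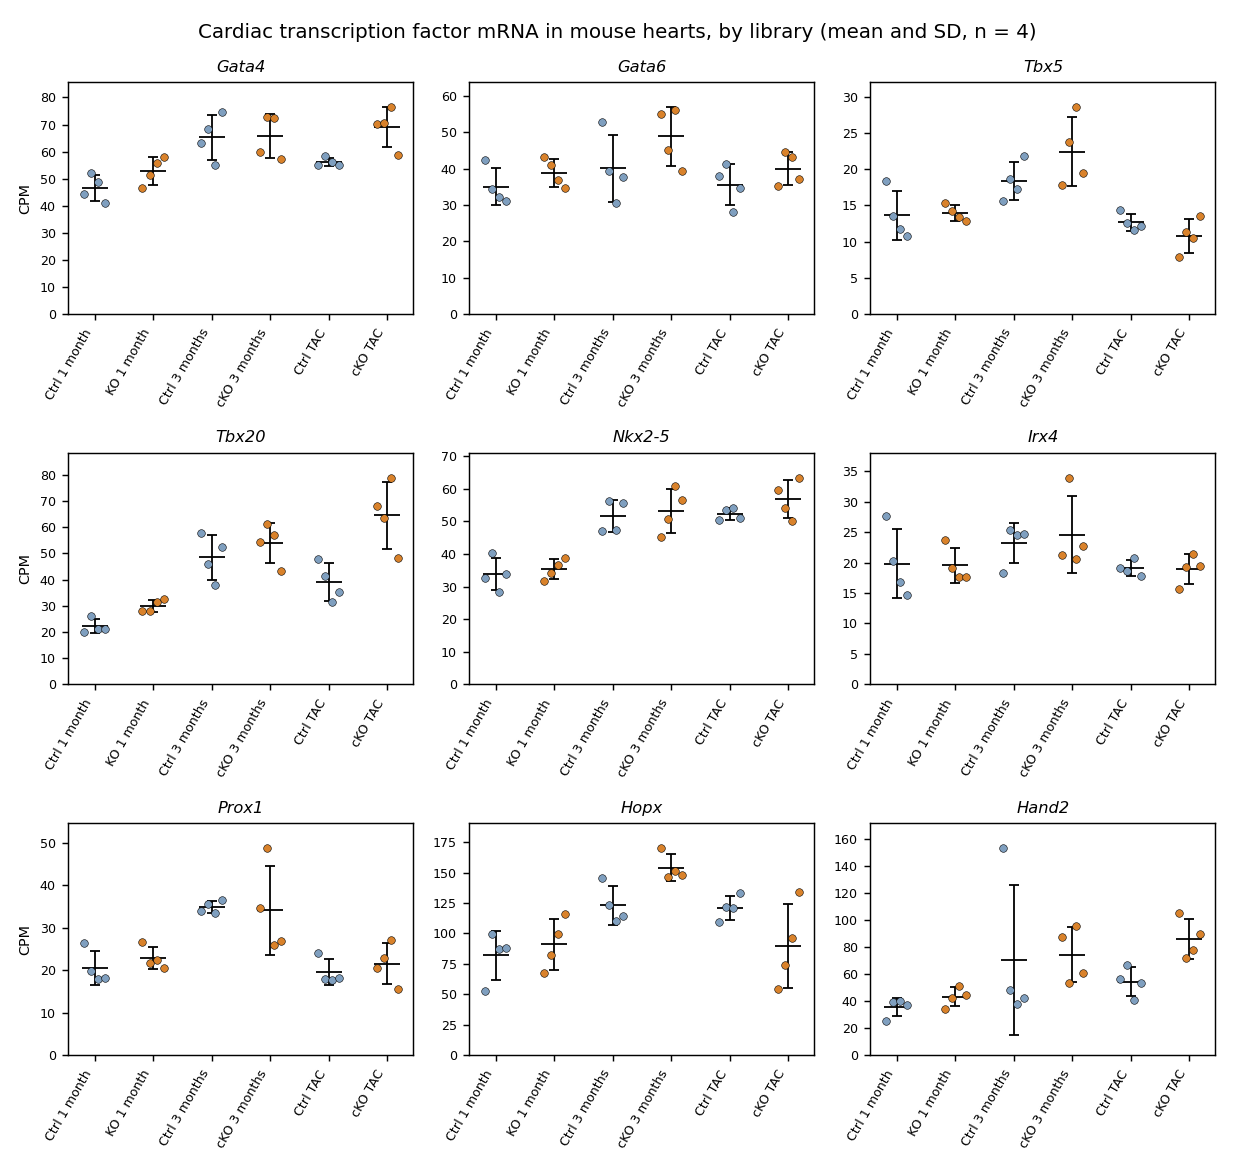
CPM of 9 factors in each mouse heart library (points), with the mean and SD of each group (black, n = 4), for hearts at 1 month, at 3 months and after TAC. Blue points are controls and orange points Mettl5-KO or Mettl5-cKO hearts. Tbx20 and Hand2 stand higher in Mettl5-cKO after TAC, Hopx spreads widely there, and 1 control library at 3 months sits alone for Hand2 at 153 CPM.

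After TAC, the comparison asks how hearts without METTL5 in cardiomyocytes differ under pressure overload. Of the 9 tested members 2 changed, Tbx20 and Hand2, and both were higher in Mettl5-cKO. At the same threshold 12.7% of all tested genes changed and 6.57% were higher, and 2 of 9 members say little against that background. No member passed with an absolute log2 fold change over 1 as well, where 2.9% of all genes did. The median log2 fold change of the 9 members was 0.15, beside -0.0035 over all genes.

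Tbx20 (chromosome 9, 24718138 to 24774303, GRCm38, minus strand) measured 47.9, 41.3, 31.5 and 35.1 CPM in control libraries 1 to 4. It measured 68.0, 63.3, 78.9 and 48.1 CPM in Mettl5-cKO libraries 1 to 4. Mettl5-cKO libraries 1 to 3 stood clear of the controls, and the lowest, library 4, was just above the highest control. The log2 fold change was 0.73 (SE 0.168, adjusted p = 0.0256 in edgeR), 1.66-fold, and the exact permutation p was 0.0286.

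Hand2 (chromosome 8, 57320983 to 57324633, plus strand) measured 56.1, 66.4, 41.0 and 53.4 CPM in control libraries 1 to 4, and 105, 71.6, 77.6 and 89.4 CPM in Mettl5-cKO. All Mettl5-cKO libraries lay above all controls. The log2 fold change was 0.66 (SE 0.159, adjusted p = 0.0292 in edgeR), 1.58-fold, with an exact permutation p of 0.0286. Hand2os1, on the other strand, measured 54.0 ± 8.06 CPM in controls and 51.0 ± 3.15 in Mettl5-cKO (log2 fold change -0.08, adjusted p = 0.66).

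Gata4 lay at the edge of the threshold. Its controls were tight, at 55.0, 58.2, 56.3 and 54.9 CPM, and the Mettl5-cKO libraries measured 70.3, 70.7, 76.3 and 58.6 CPM. The groups did not overlap, as with 9.41% of all genes in this direction, although library 4 was again the lowest of its group and close to the controls. The log2 fold change was 0.30 (SE 0.0861, adjusted p = 0.0505 in edgeR), 1.23-fold.

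Hopx pointed the other way in most libraries. It measured 109, 122, 121 and 133 CPM in controls and 54.6, 73.8, 96.1 and 134 CPM in Mettl5-cKO libraries 1 to 4. Mettl5-cKO libraries 1 to 3 lay below all controls and library 4 above all of them. With all libraries the log2 fold change was -0.44 (SE 0.23, adjusted p = 0.233 in edgeR), and without Mettl5-cKO library 4 it was -0.69 (adjusted p = 0.0206). That was the only 1 of 8 fits with a library left out, and of 13 alternatives, in which Hopx passed. Over the 8 fits the log2 fold change ran from -0.69 to -0.26, with adjusted p up to 0.433.

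The other 5 tested members overlapped between the groups. Nkx2-5 averaged 52.2 ± 1.83 CPM in controls and 56.7 ± 5.88 in Mettl5-cKO, with a 95% interval of the log2 fold change from -0.05 to 0.28. Irx4, the ventricular homeobox factor, averaged 19.1 ± 1.25 and 18.9 ± 2.40 CPM (interval -0.21 to 0.19). Gata6 averaged 35.5 ± 5.61 and 40.0 ± 4.55 CPM, Prox1 19.5 ± 3.06 and 21.6 ± 4.82 CPM, and Tbx5 12.7 ± 1.19 and 10.8 ± 2.31 CPM. The intervals of Gata6 (-0.08 to 0.42), Prox1 (-0.18 to 0.48) and Tbx5 (-0.53 to 0.06) were wider and leave room for changes of the size seen for Gata4.

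The calls after TAC were often lost with 1 library fewer, while the differences kept their direction. With 1 library left out, the log2 fold change of Tbx20 was 0.63 to 0.86 and its call ended in 6 of 8 cases, all but control library 1 and Mettl5-cKO library 4 (adjusted p 0.00386 to 0.0805). That of Hand2 was 0.55 to 0.78, and its call ended in 5 of 8 cases, all but control library 2 and Mettl5-cKO libraries 2 and 4 (adjusted p 0.0278 to 0.0814). Without Mettl5-cKO library 4, 4 members changed: Tbx20, Hand2 and Gata4 were higher and Hopx was lower, in a fit in which 23.4% of all genes changed. With no filter on low counts neither Tbx20 (log2 fold change 0.75, adjusted p = 0.0561) nor Hand2 (0.68, adjusted p = 0.0556) passed. Scaling by library size alone turned 1074 higher and 997 lower genes into 2060 and 524, and Tbx20 and Hand2 stayed higher under it. Under DESeq2's Wald test Tbx20 (adjusted p = 0.000664), Hand2 (0.001) and Gata4 (0.00905) passed. That fit had no filter on low counts and called 2719 of 30040 genes (9.05%), where the main fit called 2071 of 16340. Its share is thus not comparable with 12.7%, and it called more genes.

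Cell type markers moved in the same hearts. Of 10 fibroblast markers 7 were higher, and their summed level was 632 to 825 CPM in controls, 2072 to 3060 CPM in Mettl5-cKO libraries 1 to 3 and 983 CPM in library 4, the same library in which Tbx20 and Gata4 were lowest and Hopx highest, while Hand2 was second highest of its group there. Of 12 cardiomyocyte markers 2 were lower, the sum lying between 33505 and 37296 CPM in controls and between 26042 and 32396 CPM in Mettl5-cKO. Of 10 endothelial markers 5 were lower (904 to 1082 and 657 to 840 CPM), and 2 of 10 macrophage markers were higher (194 to 261 and 260 to 349 CPM). Of 10 smooth muscle markers 1 was higher and 1 lower. Their sum was higher (2224 to 2273 and 2918 to 4603 CPM), but their median log2 fold change was -0.14 (range -0.62 to 1.01). The sum is therefore no sign that the list rose as a whole. Of 5 tested atrial markers 1 was higher and 3 were lower (45.9 to 50.2 and 32.1 to 41.3 CPM), with Myl7 and Bmp10 under 0.1 CPM. The nuclear receptor genes Nr2f1 and Nr2f2 were among those lower, and whether atrial muscle differed was not tested. At 3 months no gene on these marker lists changed, but some medians lay in the same directions. The median log2 fold change there was 0.48 for fibroblast, 0.39 for macrophage and -0.32 for endothelial markers. After TAC these medians were 0.81, 0.38 and -0.49. For the other lists the medians at 3 months lay from -0.09 to 0.08. The part of these marker shifts in the members' values was not tested. In RNA of heart tissue, fewer cells of a type and less RNA per cell cannot be told apart.

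The genotype effect after TAC was then set against that at 3 months by an interaction term over the 16 libraries of both tables. No member passed, as 0.00586% of all genes did (1 of 17070), and 3 of 9 members had an unadjusted p under 0.05 against 11.8% of all genes. Hopx had the smallest p, with a difference of -0.74 on the log2 scale (SE 0.27, adjusted p = 0.289 in edgeR), and without Mettl5-cKO library 4 of the TAC set it was -1.01 (adjusted p = 0.0131), in a fit in which 3.91% of all genes passed. Tbx20 differed by 0.59 (SE 0.243, adjusted p = 0.352) and Tbx5 by -0.51 (SE 0.235, adjusted p = 0.412). Hand2 differed by 0.60 (SE 0.51, adjusted p = 0.701), and without control library 1 of the 3-month set by -0.12. So the genotype effects on Tbx20 and Hand2 after TAC were not shown to differ from those at 3 months.

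**Figure D3:**
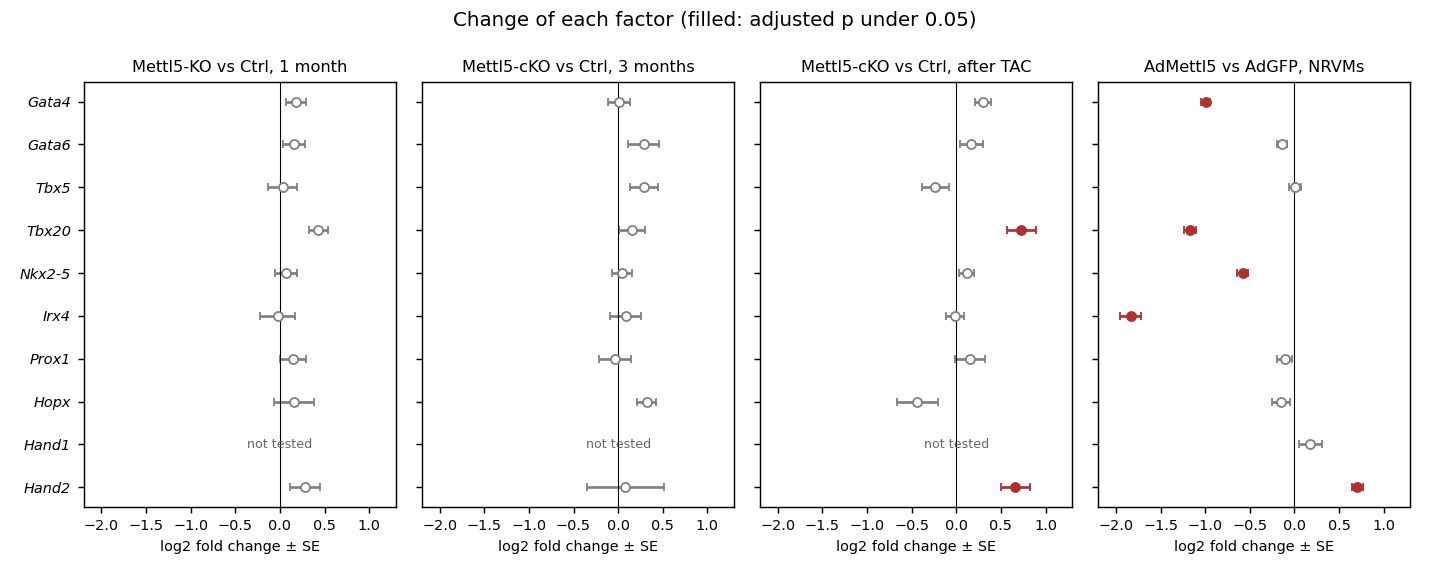
Log2 fold change of each factor (points) with its standard error (bars) in the 4 comparisons, where filled red points have an adjusted p under 0.05 in edgeR. No point is filled at 1 or 3 months, Tbx20 and Hand2 are filled to the right of 0 after TAC, and in NRVMs Gata4, Tbx20, Nkx2-5 and Irx4 are filled to the left and Hand2 to the right.

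In NRVMs the question was turned around, with METTL5 added under PE. Of the 10 members 5 changed: Gata4, Tbx20, Nkx2-5 and Irx4 fell and Hand2 rose. This was a comparison in which 52.8% of all tested genes changed, 27.1% higher and 25.7% lower, so the count of 5 of 10 is no larger than that of genes at large. With an absolute log2 fold change over 1 as well, 2 members passed, Tbx20 and Irx4, where 5.85% of all genes did. The median log2 fold change of the members was -0.15, beside -0.0022 over all genes.

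Irx4 fell most. It measured 49.2, 42.4, 62.2 and 60.7 CPM in AdGFP libraries 1 to 4, and 15.2, 15.2, 13.8 and 15.9 CPM in AdMettl5. The highest AdMettl5 library was far below the lowest AdGFP library. The log2 fold change was -1.83 (SE 0.117, adjusted p = 1.72e-07 in edgeR), and the level in AdMettl5 was 0.281 times that in AdGFP.

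Tbx20 measured 159.9, 179.8, 181 and 197 CPM in AdGFP and 83.7, 75.6, 82.5 and 77.1 CPM in AdMettl5. The groups stood well apart, and the log2 fold change was -1.17 (SE 0.0635, adjusted p = 5.61e-08 in edgeR). Gata4 measured 627, 610.5, 541 and 582 CPM in AdGFP and 294, 309, 279 and 299.8 CPM in AdMettl5. Its log2 fold change of -0.997 (SE 0.0555, adjusted p = 6.18e-08 in edgeR) means that the level in AdMettl5 was 0.501 times that in AdGFP.

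Nkx2-5 fell less, from 299.7, 284, 249 and 275 CPM to 196, 189.5, 172 and 183 CPM (log2 fold change -0.58, SE 0.061, adjusted p = 8.89e-06 in edgeR). Hand2 went the other way. It was tight in AdGFP, at 27.2, 28.0, 26.9 and 27.7 CPM, and measured 48.8, 45.8, 43.6 and 40.4 CPM in AdMettl5. Its log2 fold change was 0.70 (SE 0.0617, adjusted p = 2.21e-06 in edgeR). None of the 5 changed members overlapped between the groups, against 48.4% of all genes that did not, and each had an exact permutation p of 0.0286. At an adjusted p under 0.05 these 5 calls held under DESeq2, other size factors and filters, each library left out and scaling by library size alone, which turned 4082 higher and 3867 lower genes into 5872 and 2343.

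The other 5 members did not pass and overlapped between the groups. Tbx5 averaged 25.02 ± 0.728 CPM in AdGFP and 25.1 ± 2.21 in AdMettl5, with a 95% interval of the log2 fold change from -0.13 to 0.13. Prox1 averaged 32.8 ± 3.64 and 30.4 ± 2.35 CPM (interval -0.27 to 0.06), and Hopx 9.76 ± 0.723 and 8.79 ± 1.03 CPM (interval -0.34 to 0.04). Hand1 was at 3.84 ± 0.432 and 4.34 ± 0.48 CPM (interval -0.07 to 0.43), so it was present at a low level in these neonatal cells. Gata6 averaged 92.6 ± 6.96 and 84.0 ± 4.19 CPM, a log2 fold change of -0.14 (adjusted p = 0.0644 in edgeR) that passed in 4 of 13 alternatives: DESeq2 (0.0272) and leaving out AdGFP library 1 (0.0303), AdGFP library 2 (0.0465) or AdMettl5 library 4 (0.0353). With library size alone Gata6 was at an adjusted p of 0.943, while Hand1 passed there (log2 fold change 0.31, adjusted p = 0.0485).

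Cardiomyocyte markers fell together in the same cultures. All 11 that were tested were lower in AdMettl5, with a median log2 fold change of -1.15 and a range from -1.77 to -0.89, and their summed level was 19577 to 22841 CPM in AdGFP and 8916 to 9866 CPM in AdMettl5. The falls of Gata4 and Tbx20 lay within that range, that of Irx4 was past it, and that of Nkx2-5 was smaller. Of 9 fibroblast markers 8 were lower, by less (median -0.38), with sums of 11644 to 12271 CPM and 9197 to 10139 CPM, although the cells had been pre-plated to remove fibroblasts. One of 7 tested endothelial markers was higher, 2 of 5 macrophage markers were lower, 6 of 7 tested atrial markers moved (2 higher, 4 lower), and of 10 smooth muscle markers 3 were higher and 3 lower. The part of the makeup of the cultures in the members' values was not tested.

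**Figure D4:**
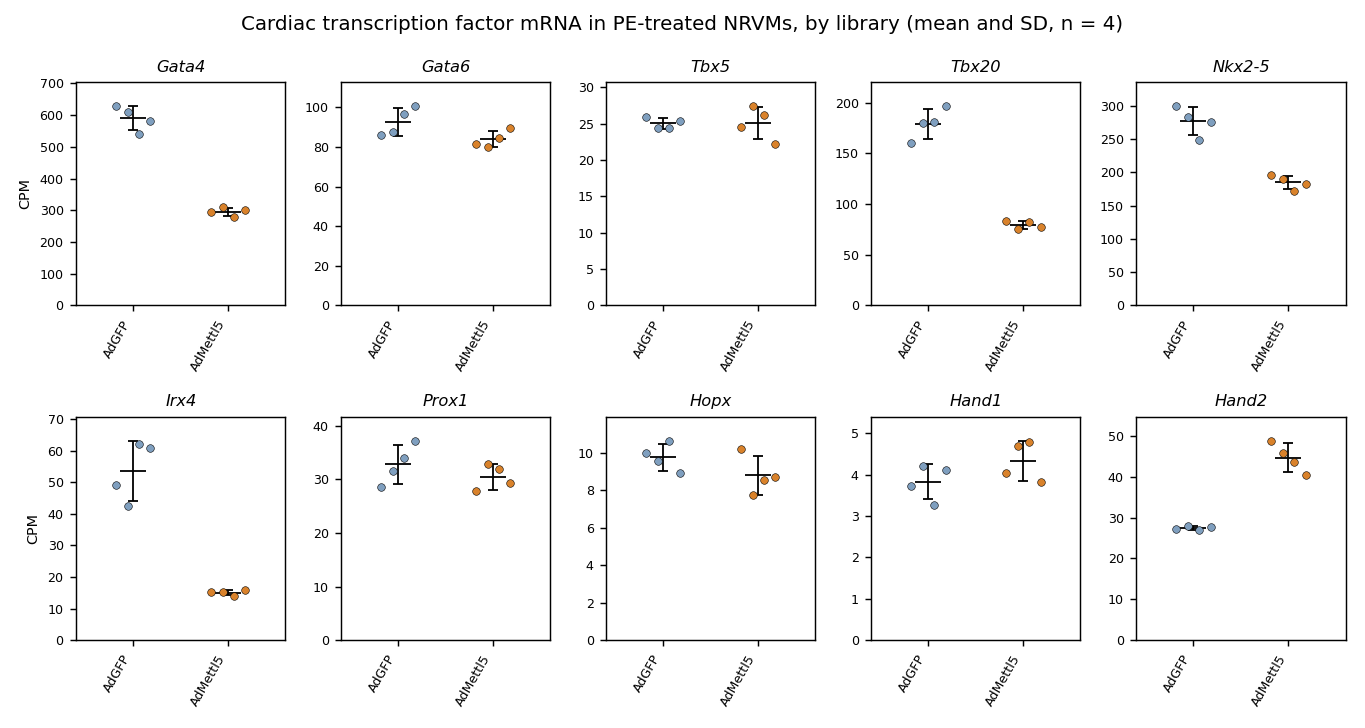
CPM of the 10 factors in each NRVM library (points), with the mean and SD of each group (black, n = 4), for AdGFP (blue) and AdMettl5 (orange), all with PE. The groups stand apart for Gata4, Tbx20, Nkx2-5 and Irx4, which are lower in AdMettl5, and for Hand2, which is higher, and they overlap for the other 5.

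The factors that work beside the members and the genes they are known to drive were read next. A list of 37 partner factors held no changed gene of 29 tested at 1 month or at 3 months. After TAC 4 of 30 changed. Tbx1, a T-box factor of the pharyngeal heart field, rose from 0.658 ± 0.0903 to 1.15 ± 0.172 CPM (log2 fold change 0.81), and Tcf21, a fibroblast factor that also stands on the fibroblast list, from 4.00 ± 0.701 to 5.75 ± 0.772 CPM (0.53). The nuclear receptors Nr2f1 and Nr2f2, which also stand on the atrial list, fell by 0.88 and 0.31 on the log2 scale. Nr2f2 averaged 16.8 CPM in the control hearts, while the atrial markers Myl7 and Bmp10 lay under 0.1 CPM in this comparison. The cells that gave the Nr2f1 and Nr2f2 reads were not tested, so these falls are not read as a change in atrial muscle. The share of 13.3% was close to the 12.7% of all genes.

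In NRVMs 16 of 30 partners changed, 7 higher and 9 lower, a share of 53.3% beside 52.8% of all genes. Gata5, the third cardiac GATA factor, fell from 43.3 ± 1.04 to 25.5 ± 1.64 CPM (log2 fold change -0.76). Srf, the serum response factor that Hopx limits, fell from 230.3 ± 5.41 to 168 ± 4.66 CPM (-0.46), and Casz1 from 91.2 ± 5.18 to 60.04 ± 3.96 CPM (-0.60). Zfpm2, which binds GATA4 and holds back its activity, rose from 35.1 ± 1.07 to 44.2 ± 1.87 CPM (0.33).

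Of 16 known targets of the network, none changed at 1 month or at 3 months. After TAC 5 changed, 4 higher and 1 lower, or 31.2% beside 12.7% of all genes. Nppa and Nppb, the natriuretic peptide genes of the stressed heart, rose from 436 ± 100.1 to 4888 ± 1804 CPM (log2 fold change 3.49) and from 278 ± 104 to 769.8 ± 164 CPM (1.47). Tnni3, the adult troponin I, fell from 3509 ± 232 to 1956 ± 506 CPM (-0.84), and Smpx rose from 205 ± 11.6 to 289 ± 49.9 CPM (0.50). In NRVMs 13 of 16 targets changed, 1 higher and 12 lower, or 81.2% beside 52.8% of all genes, with a median of -0.98. Myh6 (-1.53), Tnni3 (-1.14) and Pln (-0.96), which serve contraction and calcium uptake, were among those that fell. Several targets are also cardiomyocyte markers, so the lists are not separate readouts.

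Members also varied together from heart to heart. Over the 24 mouse libraries, with each gene centred on the mean of its table, Gata4 and Tbx20 had the highest correlation between members (Pearson r = 0.81). Irx4 and Prox1 followed (0.63), then Tbx20 and Hand2 (0.61), and Irx4 and Hand2 ran opposite (-0.60). These values are a description, since libraries share table, genotype and cell makeup, and they carry no p.

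Among 15543 genes tested in all mouse tables, the closest to Irx4 was Irx3, its relative in the Iroquois family (r = 0.85), then Xpa (0.82). Hopx ran closest to Hcn4, the pacemaker channel gene (0.88), then Gm33543 (0.84). Tbx20 was nearest to Gm21451 (0.92) and Atic (0.90), and Gata4 to Pum3 (0.86) and Pcbd1 (0.84). Nkx2-5 was nearest to Adrm1 and Pgam1 (both 0.87), Gata6 to Zfand5 (0.86) and Lnpep (0.85), and Hand2 to Rab6a (0.86) and Ell2 (0.85). Prox1 was nearest to Rsad1 (0.83) and 5930430L01Rik (0.82), and Tbx5, with the lowest values, to Epb41l5 and Fastkd1 (both 0.75). Prox1, Hopx and Gata6 overlap the antisense genes Prox1os, Hopxos and 1010001N08Rik over 133, 412 and 93 exonic bases, and these partners had at most 16, 22 and 172 counts in any mouse library.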

How the data were processed

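RNA of mouse hearts and NRVMs was sequenced in 32 libraries of 8 groups. The authors aligned the reads with HISAT2 2.0.4 to GRCm38 or Rnor_6.0 and made estimated counts per gene with StringTie 2.1.4, and DESeq2 1.4.5 stands in the submitters' processing notes. The deposited estimated counts are whole numbers without scaling, so rounding changed nothing. The plan had named plain counts, and the tests were run on the estimated counts as such. Strand use in counting is not given in the sources used here. Groups came from the labels. For the 1-month table each column names its sample, and for the others only the group, so libraries are numbered by the order of the numbers in their column names.

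Separate fits were made for the 4 tables with glmQLFit and glmQLFTest of edgeR 4.0.16 in R 4.3.3. Libraries were scaled by TMM, and filterByExpr kept genes with at least 10 counts in enough libraries and 15 in total. CPM use the TMM library sizes. A 95% interval was set from the log2 fold change and its standard error under normal error. Exact permutation tests used log2 CPM with a prior count of 2. Alternatives were DESeq2 1.42.0, its size factors in edgeR, library size alone, no filter, at least 10 counts in every library, an unadjusted p, an added log2 fold change over 1, a replicate block at 1 month, and each library left out. The code was tested on simulated data. No pair of libraries in a group was alike within sampling noise (chi-square per degree of freedom 2.16 or more).

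All 10 members are named in each comparison. On the partner and target lists the 4 genes with the smallest adjusted p are named where a gene changed, and for each member the 2 most correlated genes. A gene that this rule selects is not reported here. Marker lists are given by counts and summed levels. The members, lists and tests were chosen with earlier results of these data known. Gene positions and exon lengths are from GENCODE vM21, and promoters are from RefSeq. Over all genes, standard errors of the log2 fold change had medians of 0.175 (1 month), 0.157 (3 months), 0.134 (TAC) and 0.0807 (NRVMs).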

Additional observations from a re-analysis of the deposited data

Results flagged for a closer look

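In all, 5 single libraries stood apart from the other 3 of their group for a member, their gap to the nearest library being past the 95% critical value of Dixon's test. The check covered 75 groups, and chance alone sets off about 1 in 20. Hand1 had 0.190 CPM (4 counts) in control library 2 at 1 month and 0 in the other controls. Beside values of 0 any count would have been flagged, so this flag says nothing about the library. Hand2 had 153 CPM in control library 1 at 3 months, beside 37.8 to 48.3 CPM. Irx4 had 18.3 CPM in the same library, beside 24.5 to 25.3 CPM, so this control was highest for Hand2 and lowest for Irx4. Irx4 had 33.9 CPM in Mettl5-cKO library 2 at 3 months, beside 20.6 to 22.7 CPM, and Prox1 was also highest there, at 48.8 CPM. Prox1 had 24.1 CPM in control library 1 after TAC, beside 17.8 to 18.2 CPM.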

How the results depend on the processing

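No member changed at 1 or 3 months under DESeq2, DESeq2's size factors, library size alone, either filter or any library left out. With an unadjusted p, 1 member, 2 partners and 2 targets passed at 1 month and 1 member, 2 partners and 2 targets at 3 months, against 747 and 1155 of all genes. DESeq2 called 13 genes at 1 month and 108 at 3 months, 1 of them a target at 3 months. Library size alone gave 0 genes at 1 month, and no filter gave 1 at 3 months. Leaving out a library gave 0 to 2 genes at 1 month and 2 to 9 at 3 months. With a replicate block in the 1-month fit, the log2 fold change of Irx4 was 0.00584 in place of -0.02, no other member changed sign and none passed. Same-numbered libraries there correlated at -0.107 to 0.239, so the numbers did not pair the libraries. In the other tables no paired analysis was possible because the columns carry no replicate numbers of the labels.

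After TAC, 4 members passed with library size alone, all higher, where 15.8% of all genes passed, 2060 higher and 524 lower. This scaling also moved the median of all genes to 0.143 on the log2 scale (0.133 in NRVMs). No member, 2 partners, 3 targets and 1052 genes passed with no filter, which is 3.5% of the 30075 genes tested there, low counts included. DESeq2, also without that filter, called 7 partners and 2719 of 30040 genes (9.05%). With an unadjusted p 14 partners, 9 targets and 5062 genes (31%) passed. With a log2 fold change over 1 no member, no partner, 2 targets and 474 genes (2.9%) did. Leaving out a library gave 0 to 4 members, 0 to 9 partners, 1 to 8 targets and 479 to 3899 genes (2.88% to 23.4%). The highest counts came without Mettl5-cKO library 4. In NRVMs 2 members, 0 partners and 880 genes had a log2 fold change over 1. For the interaction, 3 members had an unadjusted p under 0.05 (11.8% of all genes), and leaving out a library gave 0 to 1, the 1 without Mettl5-cKO library 4 of the TAC set, where 3.91% of all genes passed.

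Small log2 fold changes turned sign. Irx4 after TAC was 0.00502 under DESeq2, 0.137 with library size alone and 0.00499 with no filter. Tbx5 in NRVMs was -0.0093 under DESeq2, -0.0023 with its size factors and -0.0017 with no filter. Prox1 was 0.023 at 3 months and 0.025 in NRVMs with library size alone. With a library left out the range at 1 month was -0.142 to 0.182 for Irx4, -0.0025 to 0.278 for Hopx, -0.0648 to 0.218 for Tbx5 and -0.0092 to 0.16 for Nkx2-5. At 3 months it was -0.065 to 0.0792 for Gata4, -0.117 to 0.153 for Irx4, -0.13 to 0.796 for Hand2, -0.0277 to 0.115 for Nkx2-5 and -0.262 to 0.072 for Prox1. It was -0.0739 to 0.0693 for Irx4 after TAC and -0.0433 to 0.0552 for Tbx5 in NRVMs. For the interaction it was -0.153 to 0.115 for Irx4, -0.121 to 0.809 for Hand2 and -0.263 to 0.00804 for Gata6. The cause was not tested.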
